A study of Mus musculus with 36 samples.

Results

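The comparison described here is that of mouse skin wounds of the PD arm with wounds of the P arm at day 12 after injury. Its members are the libraries labelled with that day and either arm, 6 PD and 6 P, which are 12 of the 36 libraries of the series. The arm difference was measured across 20657 genes. The series is named for the removal of senescent cells that strongly express p21 during skin wound repair. Its other libraries are P and PD wounds of days 2 and 4 and 3 samples of unwounded skin. The labels give the arms as P and PD only, without strain, genotype, agent, sex or age, so what the arms share and how they were made is not stated here. Each library was made from a snap-frozen biopsy of whole skin. The labels do not say whether replicates of an arm came from separate animals. The p-values therefore measure the spread between samples within groups, which may be partly technical. In the main fit that spread was estimated over all 36 libraries, not over the 12 alone.

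A skin wound is first filled by inflammatory cells, then covered by keratinocytes that switch to a wound program, while fibroblasts and new vessels build collagen-rich granulation tissue. In the later phase this tissue is remodelled, inflammatory cells leave, and in mice the thin muscle layer under the skin regenerates. The protein p21 stops the cell cycle by blocking cyclin-dependent kinases. It is induced by p53 and marks many senescent cells, which secrete cytokines, growth factors and proteases.

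Whole-biopsy levels differed widely among the 12 libraries within each arm. The P libraries held 20.55 to 31.28 M counts (M, mega) and the PD libraries 16.15 to 35.66 M. Markers of skin were present throughout, with summed basal keratinocyte genes at 3344 to 15200 CPM (counts scaled to the size of the library, corrected for composition). Collagen and macrophage genes stood apart in replicates 1 and 2 of both arms. Summed matrix collagens were at 50670 to 104200 CPM in those 4 libraries and at 14250 to 30910 CPM in the other 8. Summed macrophage genes were at 1523 to 2548 CPM in the same 4 libraries and at 262.3 to 1027 CPM in the others. The labels give no batch, and what sets these 4 libraries apart was not tested. Some results are therefore also given without them. Spearman correlations over genes were 0.929 to 0.991 between P libraries, 0.934 to 0.983 between PD libraries and 0.914 to 0.989 between libraries of different arms. The share of counts from mitochondrially encoded genes was 2.35% ± 0.439 (SD) in P and 3.28% ± 1.07 in PD, and the arms overlapped (two-sided exact permutation test of the means, p = 0.0671, 0.268 adjusted over 4 library measures).

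**Figure D1:**
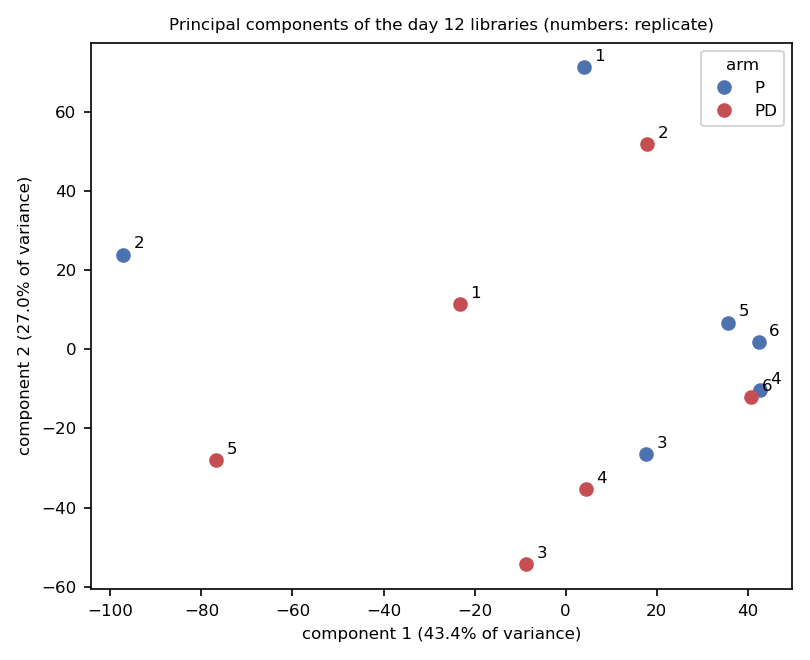
Each point is a day 12 library of the P or PD arm on the first 2 principal components of log2 CPM over the 2000 most variable genes, with its replicate number. Component 1 carries 43.4% and component 2 carries 27% of the variance, and the arms overlap on both axes.

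No gene passed the test of a difference between the arms at day 12. By edgeR's quasi-likelihood test with Benjamini-Hochberg adjustment, 0 of 20657 genes passed an adjusted p of 0.05 (0% called), and the smallest adjusted p was 0.884. At an unadjusted p under 0.05 there were 1022 genes (4.95%), 707 with a higher level in PD (3.42%) and 315 with a lower level (1.52%). DESeq2 and limma-voom also called 0 genes, with smallest adjusted p of 0.126 and 0.113 and with 1309 and 2231 genes at an unadjusted p under 0.05. Without replicates 1 and 2 of both arms the count was again 0, with 975 genes higher and 598 lower at an unadjusted p under 0.05. A fit of the 12 day 12 libraries alone also called 0 genes, with 364 higher and 168 lower at an unadjusted p under 0.05. All gene values below are therefore estimates that did not pass the test, and every gene named has an adjusted p of 0.884 or more by that test.

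Large differences could be bounded for many well-expressed genes. The median standard error of the log2 difference was 0.27 over all tested genes and 0.15 over the 10841 genes with a mean of at least 10 CPM. The 95% interval of the difference lay within a 2-fold change in either direction for 60.7% of all tested genes and for 86.6% of those at 10 CPM or more. For the 1843 genes with a mean of at least 100 CPM the median standard error was again 0.15, and 83.3% lay within that range. The median difference was -0.03 on the log2 scale, with 11406 estimates below 0 (55.2%) and 9235 above 0 (44.7%). An estimate beyond a 2-fold change was found for 793 genes with higher and 320 genes with lower levels in PD.

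**Figure D2:**
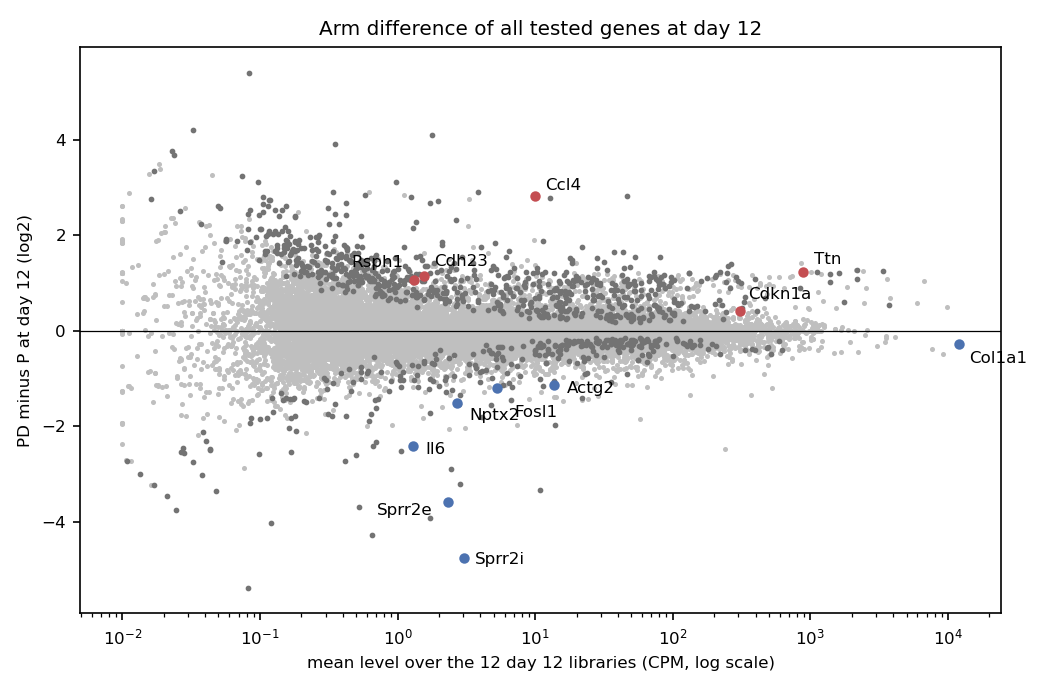
Each point is a tested gene, with its mean level over the 12 libraries on a log axis in CPM and the PD minus P difference in log2 units; darker points have an unadjusted p under 0.05, and genes under 0.01 CPM are drawn at the left edge. The labelled genes are described in the text, with Sprr2i at -4.76 and Ccl4 at 2.81, and 0 points passed the adjusted threshold.

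The levels of the arms did not overlap for 27 genes, 14 with every PD library above every P library (0.0678%) and 13 with every PD library below (0.0629%). With a mean of at least 1 CPM these were 2 genes above, Cdh23 and 6330562C20Rik, and 10 genes below. The 10 below were Dnaja1, Ythdc1, Myh11, Piga, Zfp791, Kcnt1, Acly, Ganab, Cpox and Zbtb3, and these 12 were picked out after their values were seen. Most of the differences were small. Ythdc1, a nuclear reader of N6-methyladenosine in RNA, ran from 48.8 to 55.1 CPM in P (median 53.3) and from 44.2 to 47.7 CPM in PD (median 46.0). Its log2 difference was -0.20 ± 0.08 (SE).

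Cdkn1a, which encodes p21 and lies on chromosome 17 (GRCm39, 29309936 to 29319701, plus strand), was measured well in every library. Its levels in P replicates 1 to 6 were 197, 264, 309, 257, 272 and 296 CPM. In PD replicates 1 to 6 they were 326, 300, 433, 298, 369 and 382 CPM. The arms overlapped: P replicate 3 lay above PD replicates 2 and 4, and the other 5 P libraries lay below all PD libraries. The log2 difference was 0.40 ± 0.18 (SE; 95% interval 0.04 to 0.77; adjusted p = 0.884 by edgeR with Benjamini-Hochberg adjustment). Unwounded skin held 228 ± 29.7 CPM (SD, n = 3). With the summed level of skeletal muscle genes as a covariate the estimate was 0.19, and without replicates 1 and 2 of both arms it was 0.36.

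Of the 7 genes for cyclin-dependent kinase inhibitors, 5 had estimates above 0 and 2 below, with a median of 0.21 against -0.03 over all tested genes. Apart from Cdkn1a, none had an unadjusted p under 0.05. Cdkn2d, which encodes the Cdk4 and Cdk6 inhibitor p19, had a log2 difference of 0.21 ± 0.11 (SE), and Cdkn1b, which encodes p27, had -0.15 ± 0.12. The p53 targets other than Cdkn1a were evenly placed, with 10 of 20 above 0, 10 below and a median of -0.01. Ccng1, which encodes cyclin G1, ran from 44.6 to 142 CPM in P (median 74.1) and from 57.5 to 379 CPM in PD (median 138). Its log2 difference was 0.89 ± 0.36 (SE), and 0.03 with the skeletal muscle level as covariate. Eda2r, a receptor of the tumour necrosis factor family, had 0.78 ± 0.32, and 0.07 with that covariate. For both genes PD replicate 3 was the highest library, and it was also the highest in summed skeletal muscle genes. Senescence markers other than these inhibitors, such as lamin B1 and beta-galactosidase genes, had 4 of 10 estimates above 0 and a median of -0.07, and 0 of them had an unadjusted p under 0.05.

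Secreted factors linked to senescence did not share a direction, with 14 of 28 above 0, 14 below and a median of -0.02. An unadjusted p under 0.05 was found for 5 with higher and 1 with lower levels in PD. Over all tested genes these shares were 3.42% and 1.52%. Il6, the gene of the cytokine interleukin 6 (chromosome 5, 30218112 to 30224979, plus strand), was the lower member. Its P levels were 8.53, 0.807, 1.91, 0.757, 0.818 and 0.318 CPM in replicates 1 to 6, and its PD levels were 0.680, 0.721, 0.0558, 0.394, 0.365 and 0.228 CPM. P replicate 1 was far above all other libraries, P replicate 3 came next, and P replicate 6 lay inside the PD range. The log2 difference was -2.41 ± 0.66 (SE), and -1.16 without P replicate 1. Il6 was at 0 CPM in all 3 unwounded samples.

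Ccl4, a chemokine gene on chromosome 11 (83553383 to 83555509, plus strand) whose product attracts monocytes and lymphocytes, had the smallest p of the 5 higher members. It ran from 0.189 to 8.17 CPM in P (median 0.961) and from 0.813 to 95.7 CPM in PD (median 1.86). The single library at 95.7 CPM was PD replicate 2, and the other 5 PD libraries lay within the P range. The log2 difference was 2.81 ± 0.92 (SE), but -0.49 without PD replicate 2. The related chemokine gene Ccl3, the neutrophil attractant Cxcl2 and the cytokine gene Tnf followed the same library, with log2 differences of 2.77, 2.82 and 1.53 that became -0.45, -1.03 and -0.38 without it. The list of neutrophil genes also peaked there, at 969.7 CPM against 34.47 to 96.79 CPM in the other PD libraries. Of the 14 tested neutrophil genes, 6 were above 0 and 8 below, with a median of -0.44. That median was -2.48 without PD replicate 2 and 0.57 without replicates 1 and 2 of both arms.

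Mmp12, the macrophage elastase gene, was the higher member that did not depend on PD replicate 2. It ran from 12.6 to 66.4 CPM in P (median 19.5) and from 5.80 to 182 CPM in PD (median 70.8). PD replicates 1, 3 and 5 were at 128 to 182 CPM, and the other 3 PD libraries were at or below 13.4 CPM. The log2 difference was 1.54 ± 0.57 (SE), with values of 0.44 to 2.26 over the alternatives. Unwounded skin held 0.671 CPM.

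**Figure D3:**
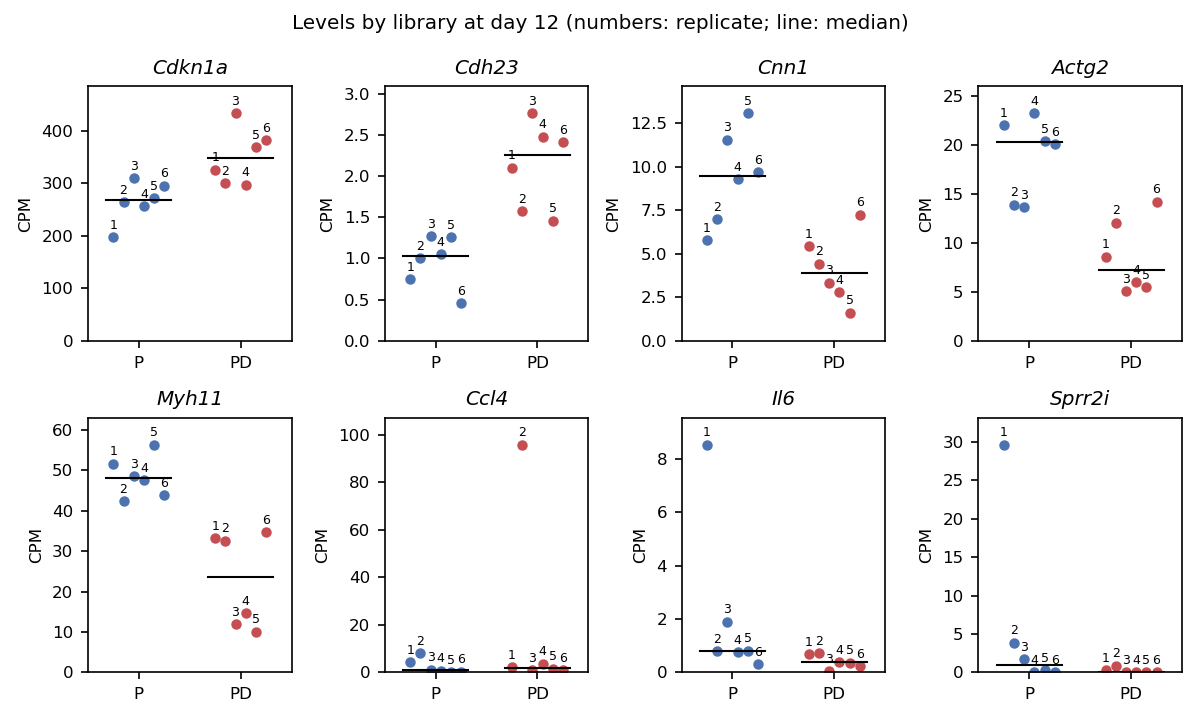
Levels in CPM of 8 genes in each day 12 library of the P and PD arms, with replicate numbers beside the points and the median of the arm as a line. Cdh23 and Myh11 do not overlap between arms, while Ccl4 reaches 95.7 CPM in PD replicate 2 only and Il6 and Sprr2i reach 8.53 and 29.6 CPM in P replicate 1 only.

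Among the genes of smallest p with a higher level in PD, Cdh23 came first. It encodes a cadherin of the tip links of sensory hair cells and lies on chromosome 10 (60138527 to 60532269, minus strand). Its P levels ran from 0.459 to 1.27 CPM (median 1.03) and its PD levels from 1.46 to 2.76 CPM (median 2.25). Every PD library lay above every P library, with PD replicate 5 closest to P. The log2 difference was 1.14 ± 0.28 (SE; 95% interval 0.57 to 1.71), and 0.82 to 1.34 over the alternatives. Both arms lay under the mean of unwounded skin, 3.55 ± 1.70 CPM (SD, n = 3).

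The other 9 genes of that rank had log2 differences between 0.51 and 2.81, Ccl4 included. Rsph1, a radial spoke gene of motile cilia, ran from 0.660 to 1.20 CPM in P and from 0.683 to 3.04 CPM in PD, and PD replicate 6 alone lay within the P range (1.07 ± 0.29, SE). Capn3, the calpain gene of skeletal muscle, ran from 0.467 to 2.095 CPM in P and from 0.695 to 5.77 CPM in PD. Its difference was 1.28 ± 0.43 (SE), and 0.32 with the skeletal muscle level as covariate. Asnsd1 had 0.56 ± 0.18 (SE) with PD replicates 3 and 5 highest. The remaining 5 were Prr15 (0.85), 0610040B10Rik (0.91), 2300009A05Rik (0.51), Gm5451 (1.04) and 6330562C20Rik (0.81), all in log2 units and all with a mean of at most 5.55 CPM over the 12 libraries.

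The genes of smallest p with a lower level in PD held contractile genes of smooth muscle. Actg2, the smooth muscle gamma actin gene (chromosome 6, 83489887 to 83513551, minus strand), was at 21.98, 13.9, 13.7, 23.2, 20.4 and 20.1 CPM in P replicates 1 to 6. In PD it was at 8.58, 12.1, 5.08, 5.96, 5.51 and 14.2 CPM. PD replicate 6 lay just above the 2 lowest P libraries and the other 5 PD libraries lay below every P library. The log2 difference was -1.14 ± 0.33 (SE), and -0.81 to -1.36 over the alternatives.

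Cnn1, the gene of calponin 1 (chromosome 9, 22010512 to 22020926, plus strand), ran from 5.79 to 13.1 CPM in P (median 9.50) and from 1.63 to 7.25 CPM in PD (median 3.89). PD replicate 6 was the only PD library above a P library, and the difference was -1.18 ± 0.35 (SE). Myh11, the smooth muscle myosin heavy chain gene (chromosome 16, 14012399 to 14109236, minus strand), ran from 42.4 to 56.3 CPM in P (median 48.1) and from 10.1 to 34.7 CPM in PD (median 23.6). The arms did not overlap, PD replicates 3, 4 and 5 were lowest, and the difference was -1.08 ± 0.43 (SE). Without replicates 1 and 2 of both arms the differences of Actg2, Cnn1 and Myh11 were -1.36, -1.56 and -1.49. Unwounded skin held 20.8 ± 4.48, 18.1 ± 4.64 and 159 ± 13.4 CPM of the 3 genes (SD, n = 3).

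The list of myofibroblast and smooth muscle genes as a whole was split, with 7 of 11 below 0, 4 above and a median of -0.54 against -0.03 over all tested genes. The upper end was held by Tpm2, a tropomyosin gene, at 1.08 ± 0.50 (SE), and Des, the desmin gene, at 1.02 ± 0.50. Both are also expressed in skeletal muscle. With the skeletal muscle level as covariate Tpm2 and Des were at -0.01, and Actg2, Cnn1 and Myh11 were at -0.81, -1.03 and -0.73. The genes of that covariate themselves had a median difference of 1.22, so muscle level and arm cannot be fully told apart in such a fit. Why estimates moved with it was not tested, here and wherever the covariate is used.

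Small proline-rich proteins of the Sprr2 family are cross-linked into the cornified envelope of keratinocytes, and several are induced when epidermis is injured. Sprr2i and Sprr2e were among the 10 lower genes of smallest p. The family lies in a cluster on chromosome 3 within the epidermal differentiation complex, where Sprr2i spans 92315298 to 92316578 and Sprr2e 92259450 to 92260756 (GRCm39, plus strand). The sequences below are the 250 bases before the annotated start of the 4 members with the smallest p among those at a mean of at least 1 CPM that the RefSeq promoter table holds, and are shown because these flanks are alike. They come from RefSeq on GRCm38.p6, plus strand: chr3:92407741-92407990 for Sprr2i, chr3:92351893-92352142 for Sprr2e, chr3:92364937-92365186 for Sprr2f and chr3:92338890-92339139 for Sprr2d. Capitals mark TGANTCA, the AP-1 motif, ATTTGCAT, the octamer motif, and TATAAA, the TATA box.
Sprr2i: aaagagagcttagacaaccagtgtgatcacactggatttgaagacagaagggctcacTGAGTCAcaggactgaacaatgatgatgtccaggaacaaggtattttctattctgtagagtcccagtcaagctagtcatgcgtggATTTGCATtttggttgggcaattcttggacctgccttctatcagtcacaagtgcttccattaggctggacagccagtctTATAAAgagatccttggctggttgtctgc
Sprr2e: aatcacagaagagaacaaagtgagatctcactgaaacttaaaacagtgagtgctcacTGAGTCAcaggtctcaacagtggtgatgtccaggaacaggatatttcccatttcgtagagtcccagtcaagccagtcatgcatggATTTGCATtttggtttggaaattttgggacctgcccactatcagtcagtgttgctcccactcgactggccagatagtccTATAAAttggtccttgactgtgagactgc
Sprr2f: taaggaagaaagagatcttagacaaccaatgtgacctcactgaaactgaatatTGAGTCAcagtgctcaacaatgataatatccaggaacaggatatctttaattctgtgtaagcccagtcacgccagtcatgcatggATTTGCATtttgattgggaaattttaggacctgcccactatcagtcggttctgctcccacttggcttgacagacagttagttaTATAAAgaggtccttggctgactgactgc
Sprr2d: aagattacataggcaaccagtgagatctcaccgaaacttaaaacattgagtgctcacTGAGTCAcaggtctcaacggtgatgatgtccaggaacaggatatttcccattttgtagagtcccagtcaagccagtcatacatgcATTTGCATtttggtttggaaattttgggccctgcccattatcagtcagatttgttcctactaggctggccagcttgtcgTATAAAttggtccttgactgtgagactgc

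The 3 motifs were searched on both strands and do not overlap one another. The 4 flanks carried TGANTCA 187 to 197 bases before the start, ATTTGCAT 101 to 112 bases before it and TATAAA 24 to 29 bases before it. Each motif was found in 7 of the 10 tested Sprr2 genes that the table holds. Of all 32851 promoter windows of that length, 6.75% held TGANTCA, 1.60% held ATTTGCAT and 12.4% held TATAAA. A match describes the letters of the window and is not evidence of binding. Identity between the 4 flanks was 71.1 to 89.3% and identity between their transcripts 71.4 to 80.5% over 6 pairs. Whether any reads matched several members was not tested.

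Sprr2i was at 29.6, 3.88, 1.68, 0, 0.252 and 0 CPM in P replicates 1 to 6. In PD it was at 0.266, 0.882, 0, 0.0563, 0 and 0 CPM. P replicates 1 to 3 lay above every PD library and the other 3 P libraries lay among them. The log2 difference was -4.76 ± 1.30 (SE), and -2.43 without P replicate 1 and -0.88 by limma-voom.

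Sprr2e was likewise highest in P replicates 1 to 3, and ran from 0.210 to 16.1 CPM in P (median 1.57) and from 0 to 0.798 CPM in PD (median 0.286). Its difference was -3.59 ± 1.09 (SE), and -2.43 without P replicate 1. Sprr2f had -3.93 ± 1.23, and -0.30 by limma-voom. Sprr2d had -3.34 ± 1.08, and -1.40 without P replicate 1. Of 13 Sprr2 genes in the files 12 were tested, 11 had estimates below 0 and 7 had an unadjusted p under 0.05 in that direction. Over all tested genes these shares were 55.2% and 1.52%. The 6 tested Lce3 genes, late cornified envelope genes of the same complex, all had estimates below 0, from -2.90 to -1.44. P replicate 1 was the highest library for all 6. Both families were singled out after their values were seen, and the mean of the unwounded samples was 0.921 ± 0.502 CPM for Sprr2a3 and 0.0524 ± 0.0908 CPM for Sprr2i (SD, n = 3).

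Genes of the keratinocyte wound program had the lowest list median, -0.97 against -0.03 over all tested genes, with 16 of 16 estimates below 0 and 3 at an unadjusted p under 0.05. Over all tested genes these shares were 55.2% and 1.52%. The summed level of the list ran from 2851 to 6857 CPM in P (median 3744) and from 985.8 to 4290 CPM in PD (median 2503). P replicates 1 and 2 were the highest libraries and PD replicates 3 and 4 the lowest, and the arms overlapped. Unwounded skin held 764.4 to 1044 CPM.

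Within the list, Krt6a, a keratin gene of activated keratinocytes, ran from 229 to 1404 CPM in P (median 535) and from 83.9 to 520 CPM in PD (median 339). The difference was -1.20 ± 0.60 (SE). Krt17, the most abundant member, had -0.44 ± 0.43, and 0.06 with the skeletal muscle level as covariate. Areg, the gene of the growth factor amphiregulin, ran from 3.81 to 8.35 CPM in P and from 1.63 to 5.33 CPM in PD and had -0.98 ± 0.39. Stfa1, a stefin gene, had -1.98 ± 0.71. Over the alternatives the list median ran from -2.23 without PD replicate 2 to -0.32 with 2 surrogate variables. Basal keratinocyte genes had 8 of 9 estimates below 0 with a median of -0.22, and differentiated keratinocyte genes 14 of 15 with a median of -0.50, which was 0.07 with 2 surrogate variables.

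The other 7 lower genes of smallest p, besides Sprr2i, Sprr2e and Il6, included Actg2 and Cnn1 and 2 transcription factor genes of rapid response. Fosl1, which encodes the AP-1 subunit Fra-1, was at 9.03, 4.97, 18.6, 2.86, 5.03 and 4.02 CPM in P and at 2.28, 5.93, 2.04, 2.65, 3.12 and 3.22 CPM in PD. PD replicate 2 and P replicate 4 crossed the other arm, and the difference was -1.21 ± 0.38 (SE). Nr4a2, an orphan nuclear receptor gene, ran from 2.73 to 8.69 CPM in P and from 2.18 to 4.20 CPM in PD, with -0.84 ± 0.26. Nptx2, a pentraxin gene, had -1.52 ± 0.43, Mybl1, a gene of the Myb family, had -1.03 ± 0.30, and Thap2 had -0.29 ± 0.09. The list of immediate early genes as a whole had 8 of 12 estimates below 0 and a median of -0.08.

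Genes of adult skeletal muscle had the highest list median, 1.22, with 16 of 16 estimates above 0 and 6 at an unadjusted p under 0.05. Over all tested genes these shares were 44.7% and 3.42%. The summed level of the list in P replicates 1 to 6 was 3294, 25860, 44870, 15150, 6110 and 8972 CPM. In PD replicates 1 to 6 it was 37690, 6531, 94240, 48670, 28500 and 18830 CPM. PD replicate 3 was the highest library, P replicate 1 the lowest, and PD replicate 2 lay among the low P libraries, so the arms overlapped. Unwounded skin held 84120 to 135000 CPM. In a whole biopsy, fewer cells of a type and less RNA per cell cannot be told apart, here and for every other list.

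Ttn, the gene of the sarcomere protein titin, ran from 153 to 1195 CPM in P (median 386) and from 217 to 3031 CPM in PD (median 1081). Its difference was 1.22 ± 0.53 (SE). Myh1, a fast myosin heavy chain gene, had 1.26 ± 0.56, and Acta1, the skeletal alpha actin gene, 1.04 ± 0.53. Genes of muscle regeneration had 10 of 10 estimates above 0 (all tested genes: 44.7%) and 2 at an unadjusted p under 0.05 (3.42% higher). Their median was 0.86, and 0.19 with the adult skeletal muscle level as covariate. Myog, the myogenin gene of differentiating myoblasts, ran from 11.02 to 54.3 CPM in P (median 40.2) and from 21.8 to 89.7 CPM in PD (median 72.5), with PD replicate 2 as the only low PD library. Its difference was 0.84 ± 0.40 (SE). Myf5, a myogenic factor gene of muscle precursors, had 1.03 ± 0.42, and Myh8, the perinatal myosin gene, 0.94 ± 0.47. With the covariate Myog, Myf5 and Myh8 were at 0.19, 0.85 and 0.13. Unwounded skin held 6.12 ± 1.87 CPM of Myog (SD, n = 3).

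Respiratory chain genes encoded in the nucleus had 15 of 15 tested estimates above 0 (all tested genes: 44.7%), with a median of 0.28. An unadjusted p under 0.05 was found for 1 of them (all tested genes: 3.42% higher). Cox5a, a subunit gene of cytochrome c oxidase, ran from 102 to 210 CPM in P and from 128 to 292 CPM in PD (0.40 ± 0.19, SE), and had 0.05 with the skeletal muscle level as covariate. The list median was -0.05 with that covariate. Adipocyte genes had 11 of 14 estimates above 0 and a median of 0.33. Their member of smallest p was Car3, a carbonic anhydrase gene that skeletal muscle also expresses, at 1.22 ± 0.54, and 0.22 with the covariate.

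**Figure D4:**
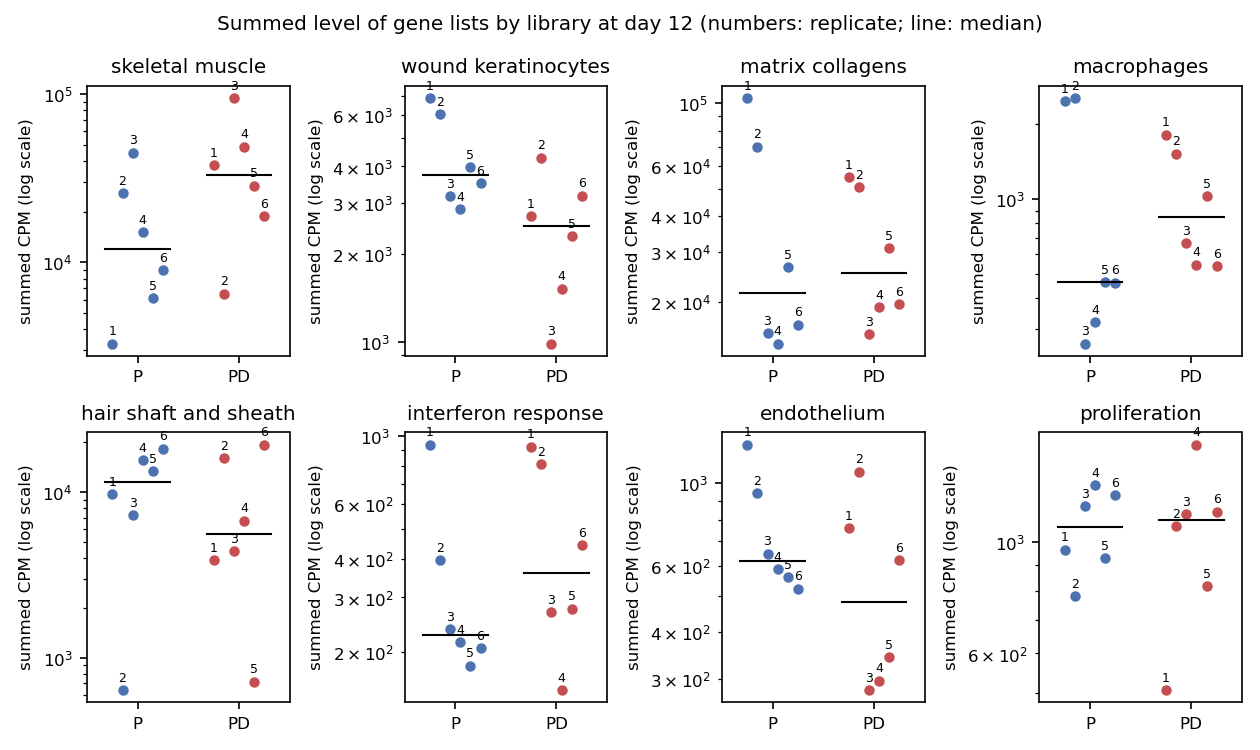
Summed CPM on log axes of 8 gene lists in each day 12 library of the P and PD arms, with replicate numbers and the median of the arm as a line. Replicates 1 and 2 of both arms hold the highest collagen and macrophage sums, PD replicate 3 holds the highest skeletal muscle sum at 94240 CPM, and the arms overlap in every panel.

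The summed level of the matrix collagens was highest in replicates 1 and 2 of both arms, as given above. Of 18 matrix collagens 17 had estimates below 0, with a median of -0.39, and 0 had an unadjusted p under 0.05. The summed level had a higher mean in P (41250 against 31790 CPM) but a higher median in PD (25240 against 21540 CPM). Col1a1, the gene of the alpha 1 chain of type I collagen, was at 32070, 22050, 5441, 4572, 9622 and 5409 CPM in P and at 17770, 16630, 4934, 6320, 12450 and 6634 CPM in PD. Its difference was -0.29 ± 0.52 (SE), and 0.24 without replicates 1 and 2 of both arms and 0.20 without P replicate 1 alone. Col4a1 and Col4a2, the basement membrane collagen genes, had -0.72 ± 0.42 and -0.61 ± 0.38, and -0.18 and -0.12 with the skeletal muscle level as covariate. Collagen processing and crosslinking genes had 15 of 16 estimates below 0 with a median of -0.20. Their summed level had a median of 1641 CPM in P and 1980 CPM in PD. The median log2 differences of the collagen, crosslinking and matricellular lists were each above 0 in 5 of the 27 alternatives.

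Of the matricellular and elastic fibre genes 17 of 18 had estimates below 0, with a median of -0.31. Their summed level had a median of 7365 CPM in P and 7502 CPM in PD. Ccn2, the gene of connective tissue growth factor, was the only member with an unadjusted p under 0.05. It was at 79.2, 76.0, 75.2, 37.1, 84.3 and 51.8 CPM in P and at 64.3, 33.6, 39.04, 37.0, 54.6 and 34.5 CPM in PD. P replicates 4 and 6 lay among the PD libraries, and the difference was -0.62 ± 0.21 (SE), with -0.53 to -0.76 over the alternatives. The related gene Ccn1 had -0.60 ± 0.32, and -0.12 without replicates 1 and 2 of both arms. In the list of TGF-beta and activin signals, Tgfb3, a TGF-beta ligand gene, had 0.45 ± 0.21, and Grem1, a gene of an antagonist of bone morphogenetic proteins, had -0.95 ± 0.45. Among proteases, Mmp9, a gelatinase gene, had -1.10 ± 0.55, and -0.36 without replicates 1 and 2 of both arms and -0.01 by limma-voom.

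Interferon response genes had 15 of 15 estimates above 0 and 1 at an unadjusted p under 0.05 (all tested genes: 44.7% and 3.42%). Their median was 0.46. Their summed level was 934.3, 396.4, 237.2, 215.4, 180.7 and 205.3 CPM in P and 920.4, 808.7, 269.5, 150.6, 276.0 and 443.3 CPM in PD. P replicate 1 and PD replicates 1 and 2 were high and the arms overlapped. The list median was 1.13 without P replicate 1 and 0.02 without PD replicate 1. Cxcl9, a chemokine gene induced by interferon gamma, ran from 4.92 to 13.6 CPM in P (median 6.19) and from 5.81 to 31.7 CPM in PD (median 9.04), with 0.94 ± 0.41 (SE). Ifit3, a gene induced by type I interferon, had 0.87 ± 0.52.

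Estimates of macrophage genes were evenly placed around 0, with 7 of 14 above, 7 below and a median of -0.03. That median was above 0 in 12 of 27 alternatives, and 0.83 without replicates 1 and 2 of both arms. The summed level had a median of 462.4 CPM in P and 845.1 CPM in PD. In replicates 3 to 6 it ran from 262.3 to 463.6 CPM in P and from 538.3 to 1027 CPM in PD. In replicates 1 and 2 it was 2488 and 2548 CPM in P and 1821 and 1523 CPM in PD. Over all day 12 libraries the arms overlapped, with a mean of 1090 CPM in P and 1020 CPM in PD. Replicates 1 and 2 were set apart after these same sums were seen, so the values without them are descriptions only. Genes of alternatively activated macrophages had 8 of 10 estimates below 0 with a median of -0.56. That median was above 0 in 7 of 27 alternatives, and ran from -1.33 without PD replicate 1 to 0.55 with 2 surrogate variables. Arg1, the arginase 1 gene, was at 120 CPM in P replicate 1 and at 8.42 to 23.4 CPM in the other P libraries, with -1.41 ± 0.63 (SE), and -0.24 without that library.

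Genes of T cells and cytotoxic lymphocytes had 14 of 14 estimates below 0 (all tested genes: 55.2%), with a median of -0.49. An unadjusted p under 0.05 was found for 1 of them (all tested genes: 1.52% lower). Cd3g, a gene of the T cell receptor complex, ran from 3.05 to 10.5 CPM in P (median 4.44) and from 0.563 to 4.75 CPM in PD (median 2.98), with -0.88 ± 0.38 (SE). Genes of epidermal gamma-delta T cells had 7 of 9 tested estimates below 0 with a median of -0.45. Trdc, the delta constant chain gene of their receptor, had -0.83 ± 0.32, and Trgc1, a gamma constant chain gene, -1.04 ± 0.45. Cd207, which encodes langerin of Langerhans cells, had -0.79 ± 0.37. For Cd3g, Trdc, Trgc1 and Cd207 PD replicates 3 and 4 were the 2 lowest libraries of all 12. The same 2 libraries were the lowest in summed basal keratinocyte and wound keratinocyte genes and the highest in summed skeletal muscle genes. With the skeletal muscle level as covariate Cd3g, Trdc, Trgc1 and Cd207 were at -0.60, -0.58, -0.82 and -0.54, the T cell median was -0.12 and the gamma-delta median 0.13. Without replicates 1 and 2 of both arms the differences of Trdc and Trgc1 were -1.39 and -1.73.

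Endothelial genes had 12 of 12 estimates below 0 (all tested genes: 55.2%) and a median of -0.44, with 0 at an unadjusted p under 0.05. Their summed level ran from 522.8 to 1269 CPM in P (median 619.3) and from 279.7 to 1075 CPM in PD (median 482.4), with PD replicates 3, 4 and 5 below all P libraries. Pecam1, an adhesion molecule gene of endothelium, had -0.47 ± 0.35 (SE), and Flt1, a receptor gene for vascular endothelial growth factor, -0.67 ± 0.36. With the skeletal muscle level as covariate Pecam1 was at -0.16 and Flt1 at -0.35. Schwann cell genes had 10 of 10 estimates below 0 (all tested genes: 55.2%) and a median of -0.47. Among them were Mbp, the myelin basic protein gene, at -0.52 ± 0.28 and Ncmap, a gene of a myelin-associated protein, at -0.84 ± 0.42. The median of the endothelial list stayed below 0 in all 27 alternatives, from -0.75 to -0.04, and that of the Schwann cell list from -0.78 to -0.20.

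Hair genes varied widely between libraries of each arm, and the arms overlapped. Their summed level was 9654, 638.2, 7276, 15590, 13370 and 18200 CPM in P and 3875, 15980, 4406, 6720, 719.2 and 19250 CPM in PD. P replicate 2 and PD replicate 5 were lowest, and unwounded skin held 7.858 to 10.59 CPM. Of 17 tested shaft and root sheath genes 16 had estimates below 0, with a median of -0.35 and 0 at an unadjusted p under 0.05. That median was 0.69 with 2 surrogate variables. Krt71, an inner root sheath keratin gene, had -0.46 ± 1.28 (SE; 95% interval -3.06 to 2.14). At this spread neither a large increase nor a large decrease of Krt71 could be excluded. Regulators of hair growth had 9 of 18 estimates above 0, 9 below and a median of -0.01.

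Proliferation genes had estimates close to 0. All 18 estimates lay between -0.20 and 0.06 with a median of -0.03, and their summed level ran from 780.4 to 1297 CPM in P and from 507.2 to 1560 CPM in PD against 184.1 to 271.8 CPM in unwounded skin. Chaperone genes of the stress list had lower estimates in PD: Hspa1a, an inducible gene of the Hsp70 family, had -0.52 ± 0.18 (SE) and Hspa5, the endoplasmic reticulum member, -0.41 ± 0.17. The list of 12 stress genes had 9 estimates below 0 and a median of -0.15. Dnaja1, an Hsp40 co-chaperone gene, did not overlap between arms, at 123 to 143 CPM in P (median 135) and 78.1 to 123 CPM in PD (median 118), with -0.29 ± 0.10.

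**Figure D5:**
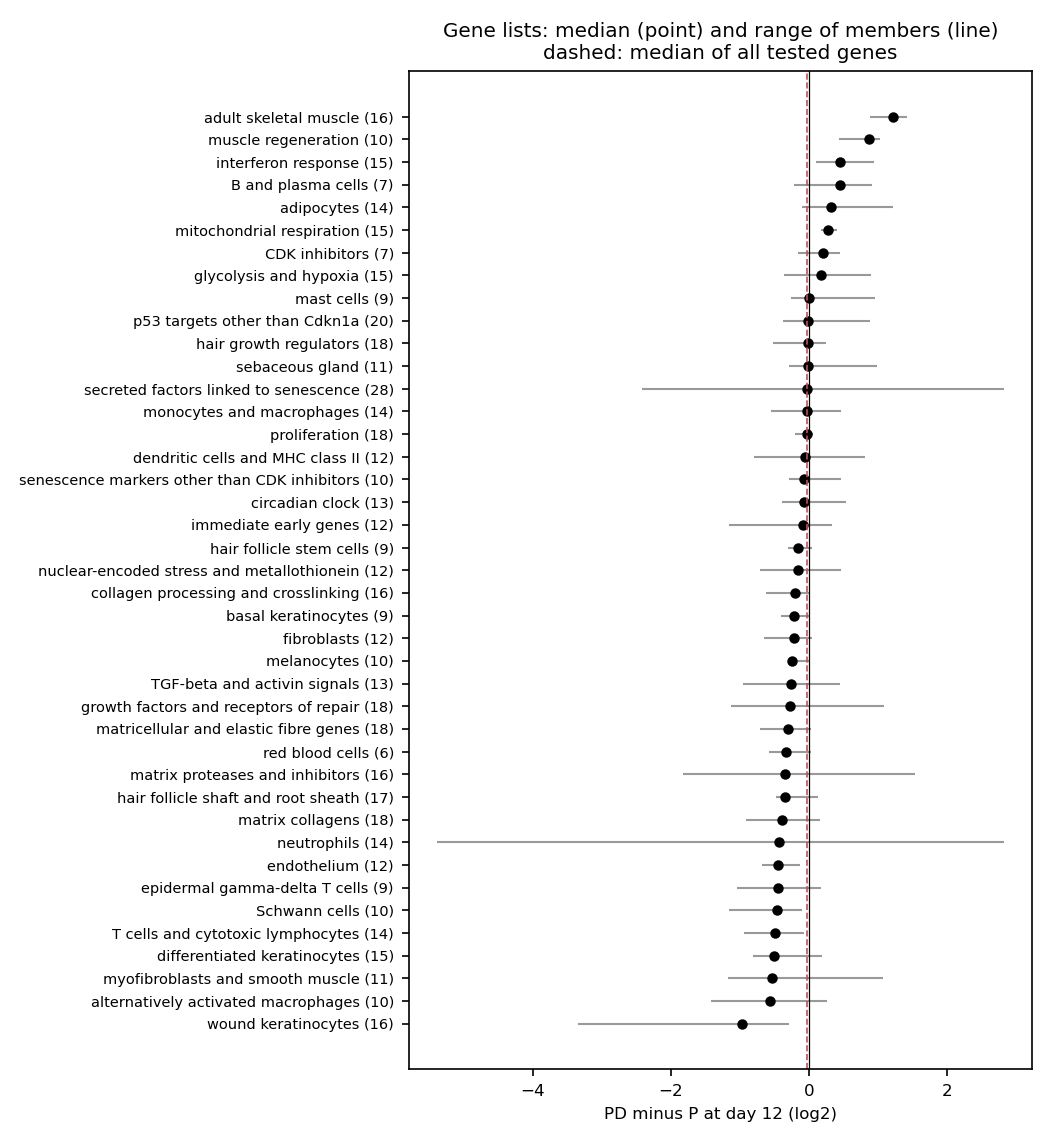
Points are the median PD minus P difference in log2 units over the tested members of each of 41 gene lists, lines run from the lowest to the highest member, and the number of tested members is in parentheses. The dashed line is the median of all tested genes, -0.03; 8 medians lie above 0 and 33 below.

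Of the 41 lists, 0 had a member that passed the test. In 4 lists every tested estimate was above 0 (adult skeletal muscle, muscle regeneration, interferon response and mitochondrial respiration). In 4 lists every tested estimate was below 0 (wound keratinocytes, T cells, endothelium and Schwann cells). Over all tested genes 44.7% of estimates were above 0 and 55.2% below. Members of a list come from the same 12 libraries and share their mixture of cells, so these counts are descriptions. In 25 of the 41 lists the median took the other sign in at least 1 alternative. The lists not described above had medians between -0.34 and 0.45.

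The arm difference of day 12 was set against that of the earlier days in the same fit. By edgeR, 0 genes (0%) had an arm difference at day 12 that differed from that at day 4, with 623 genes (3.02%) at an unadjusted p under 0.05, and 0 genes (0%) differed from day 2, with 547 genes (2.65%) at an unadjusted p under 0.05. DESeq2 called 86 genes with a higher (0.416%) and 3 with a lower (0.0145%) difference at day 12 than at day 4. Of these 89 genes 43 were keratin or keratin-associated protein genes. Summed hair genes were at 12080 CPM in P day 4 replicate 3, at 8.769 to 30.28 CPM in the other P libraries of day 4 and at 9.552 to 46.80 CPM in the PD libraries of that day. Without that library DESeq2 called 0 genes, with 500 at an unadjusted p under 0.05. For Cdkn1a the arm differences were 0.40 at day 12, 0.41 at day 4 and -0.23 at day 2. For Il6 they were -2.41, 0.49 and 0.27, and for Fosl1 -1.21, 0.36 and -0.48, and neither gene passed the adjusted test of the difference between days.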

How the data were processed

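Whole-skin biopsies were sequenced as stranded mRNA libraries, per the labels' protocols. The values used are raw read counts by gene, which the authors deposited without scaling. Per the submitters' processing notes, the tools were Trimmomatic, HISAT2 2.1.0 (build GRCm39), SAMtools 1.9 and HTSeq. The strand setting and annotation release of the counting are not given in the sources used here, so values of overlapping antisense genes are less certain. Values of close relatives such as Sprr2 or Krtap genes may be less certain too, which was not tested. Of 55414 identifiers 98.8% were found in GENCODE vM39, which gave the coordinates.

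TMM-scaled counts were fitted with edgeR 4.0.16 in R 4.3.3 (robust quasi-likelihood), using 36 libraries and a coefficient for each group. Low genes were removed with filterByExpr (count of 10, total of 15), which left 20657 genes, and the threshold was an adjusted p of 0.05 (Benjamini-Hochberg). Standard errors and intervals derive from that fit. No pair of libraries of an arm was alike within sampling noise (chi-square per degree of freedom 12.5 or more). Library measures were compared by a two-sided exact permutation test over 924 splits.

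The comparison, the 41 gene lists and the tests were chosen with earlier results of these data known. The naming rule takes Cdkn1a, the 10 genes of smallest p in each direction (mean of 1 CPM or more) and, of the lists described, the 2 members of smallest p and the 2 of highest level. Not every gene the rule gives is printed. Genes outside it (Ccl3, Tnf, Myh11, Areg, Sprr2f and those said to be so) were chosen after their values were seen. Alternatives were other scalings and filters, DESeq2 1.42.0, limma-voom (limma 3.58.1), 2 surrogate variables (sva 3.50.0), a replicate block, and left-out libraries or genes. Added after the data were seen were fits without replicates 1 and 2 or with a term for them, a skeletal muscle covariate, and fits without P day 4 replicate 3. The code was tested on simulated counts.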

Additional observations from a re-analysis of the deposited data

Results flagged for a closer look

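Each arm of 6 libraries was checked for a highest or lowest library far from its neighbours, by the ratio of its gap to the arm's range. The check covered the summed levels of the lists and the library measures. Of the genes it covered Cdkn1a and the 10 of smallest p in each direction. Other named genes were not checked, such as Cxcl2, at 457.6 CPM in PD replicate 2 against 0 to 26.28 CPM in the other PD libraries. Of 132 groups checked 10 passed that limit, and chance alone passes about 1 in 20.

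Among the groups checked, PD replicate 2 stood apart 5 times on the high side. Its summed differentiated keratinocyte genes were at 12160 CPM against 653.1 to 4599 CPM in the other PD libraries, and its summed neutrophil genes were at 969.7 CPM against 34.47 to 96.79 CPM. Its Ccl4 level was 95.72 CPM against 0.8131 to 3.658 CPM, and its Fosl1 level was 5.931 CPM against 2.036 to 3.220 CPM. Its Sprr2i level of 0.8816 CPM was also apart, against 0 to 0.2662 CPM.

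P replicate 1 stood apart in summed interferon response genes, at 934.3 CPM against 180.7 to 396.4 CPM in the other P libraries. It also stood apart in Sprr2i, at 29.61 CPM against 0 to 3.875 CPM, in Sprr2e, at 16.13 CPM against 0.2102 to 5.683 CPM, and in Il6, at 8.532 CPM against 0.3176 to 1.908 CPM. P replicate 3 stood apart in Rsph1, at 1.197 CPM against 0.6602 to 0.8407 CPM.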

How the results depend on the processing

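The count of 0 called genes for PD against P at day 12 was the same in all 27 alternatives, with 0 to 0 genes higher and lower when each library was left out, a smallest adjusted p of 0.113 over them and 272 to 2231 genes at an unadjusted p under 0.05. A block for the replicate number, shared by all 36 libraries, gave 0 genes higher and 0 lower. It left 1427 genes at an unadjusted p under 0.05, against 1022 without the block. In the 12 day 12 libraries alone, where the block pairs P with PD, 0 genes were called. There 731 genes were higher and 832 lower at an unadjusted p under 0.05, against 364 and 168 without the block. Of the 6 same-numbered pairs of P and PD libraries 4 deviated together with a correlation over 0.1 (range -0.105 to 0.535), and 2 of 6 P libraries correlated best with their own number. For same-numbered pairs of day 2 the correlations were 0.435, 0.463, -0.253, 0.32 and 0.321, and for those of day 4 0.209, 0.192, -0.138, 0.113 and 0.102. Since the labels give no shared source and not every pair passed, the numbers were not taken as pairs. Whether they mark a shared source cannot be told from the labels. The test against day 4 gave 86 higher and 3 lower genes by the DESeq2 Wald test and 1 lower gene by limma-voom, and the test against day 2 gave 13 higher and 8 lower genes by DESeq2; both were 0 by edgeR, and the cause was not tested for day 2 or limma-voom. The difference of mitochondrial shares in medians was 0.853 percentage points (two-sided exact permutation p = 0.0411, against 0.0671 for means). Of 71 genes followed, 0 passed the threshold in any alternative and 9 turned direction in at least 1. Without PD replicate 2, Ccl4 was at -0.49, Ccl3 at -0.45, Tnf at -0.38 and Cxcl2 at -1.03, the low ends of leave-one-out ranges that reached 3.70, 4.25, 1.92 and 4.15 without P replicate 2. With the skeletal muscle level as covariate, Des was at -0.014, Tpm2 at -0.0067, Krt17 at 0.058, Krt71 at 0.61 and Col1a1 at 0.27. Col1a1 was also at 0.32 by limma-voom, 0.53 with 2 surrogate variables, 0.24 without replicates 1 and 2 of both arms and 0.20 without P replicate 1, and Krt71 at 0.44 with 2 surrogate variables. Except for these turns, the cause of which was not tested, the genes kept their direction. The median standard error was 0.15 for genes at 10 CPM or more against 0.27 over all genes, and it was 1.28 for the abundant hair gene Krt71.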
